A study of Homo sapiens with 8 samples.

Results

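The guanylate-binding proteins GBP1, GBP2, GBP3, GBP4 and GBP5 were followed by their gene symbols, and all 5 were found among the 57445 genes of the count table. The libraries were made from ribosome-bound RNA of MDA231-BrM2, a brain-metastatic line derived from MDA-MB-231 breast carcinoma cells. The carcinoma cells carried a GFP tag that allowed their polysomes to be pulled out of a mixed culture, a method called translating ribosome affinity purification (TRAP). There were 4 groups of 2 libraries, described as independent replicates in the series design. In the first group cells held a control hairpin and were cultured without astrocytes. The second held the same control hairpin and spent 24 h with astrocytes at 1 astrocyte per carcinoma cell. The last 2 groups held 1 of 2 hairpins against the gap junction protein Cx43, whose gene is GJA1, and were cocultured in the same way. No group of Cx43-depleted cells grown alone was analysed here, and the labels do not give the species of the astrocytes. All groups therefore share the 1 parental line, the TRAP tag and a hairpin, and all but the first share the astrocytes.

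Guanylate-binding proteins are large GTPases of the dynamin superfamily and are among the genes most strongly induced by interferon gamma, and in many cells also by type I interferon. They hydrolyse GTP, assemble into coats on the membranes of intracellular bacteria and their vacuoles, and help inflammasomes and inflammatory caspases to respond. GBP1, GBP2 and GBP5 carry a C-terminal signal for attachment of a prenyl lipid, whereas GBP3 and GBP4 reach membranes mainly together with their prenylated relatives. Induction runs through short promoter motifs, the gamma-activated site and the interferon-stimulated response element, and IRF9 and IRF1 are among the factors that act through the second.

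The genes lie side by side on chromosome 1. In the RefSeq order the cluster reads GBP3, GBP1, GBP2, GBP7, GBP4, GBP5, GBP6 and the pseudogene GBP1P1, with RBMXL1 the nearest protein-coding gene before it and LRRC8B the nearest after it. The promoters of 3 of the 5 members were in the RefSeq table (build GRCh38.p14, 300 bases from 250 before to 50 after the start), and they are shown because all 3 genes moved together and because interferon acts through short motifs at such starts. GBP1 is at chr1:89065159-89065458, GBP3 at chr1:89022817-89023116 and GBP4 at chr1:89198893-89199192, all on the minus strand. Each is printed 5′ to 3′ in the direction of its gene. Capitals mark the matches to the 2 motifs searched, GAAANNGAAA for the interferon-stimulated response element and TTCNNNGAA for the gamma-activated site.
GBP1: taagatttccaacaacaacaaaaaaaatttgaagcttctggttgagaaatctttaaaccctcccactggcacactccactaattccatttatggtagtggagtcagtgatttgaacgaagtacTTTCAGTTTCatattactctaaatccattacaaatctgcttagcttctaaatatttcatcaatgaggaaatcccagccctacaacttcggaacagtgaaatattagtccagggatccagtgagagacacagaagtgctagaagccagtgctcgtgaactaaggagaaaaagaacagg
GBP3: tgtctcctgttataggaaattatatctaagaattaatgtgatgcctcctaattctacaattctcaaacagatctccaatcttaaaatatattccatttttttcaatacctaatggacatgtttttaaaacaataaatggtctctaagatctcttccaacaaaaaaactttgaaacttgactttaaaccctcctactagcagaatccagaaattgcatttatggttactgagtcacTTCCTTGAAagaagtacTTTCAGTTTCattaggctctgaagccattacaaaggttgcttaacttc
GBP4: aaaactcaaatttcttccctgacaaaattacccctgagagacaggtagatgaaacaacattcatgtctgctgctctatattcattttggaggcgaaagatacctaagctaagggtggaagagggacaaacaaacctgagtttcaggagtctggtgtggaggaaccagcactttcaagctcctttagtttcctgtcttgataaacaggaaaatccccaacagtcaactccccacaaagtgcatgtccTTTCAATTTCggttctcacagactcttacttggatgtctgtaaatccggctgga

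All 3 windows held the interferon-stimulated response element, in each case on the strand opposite to the gene. Over all 35116 promoters of the table, 3.57% held it on either strand. The match in GBP1, TTTCAGTTTC, ran from 127 to 118 bases before the start. GBP3 held the same 10 letters at 2 to 11 bases after its start, and GBP4 held TTTCAATTTC from 4 bases before to 5 bases after its start. The letters TTCNNNGAA, searched for the gamma-activated site, were found in 7.66% of all promoters. Of the 3 windows only that of GBP3 held them, from 15 to 7 bases before its start and without overlap with the other motif. Sites that depart from these letters were not searched, so windows without a match may still hold a gamma-activated site. The same windows of GBP6 and GBP7 matched neither set of letters. The GBP1 and GBP3 windows were alike in sequence, with 117 of 156 aligned columns identical (75%). The best local alignments with GBP4 covered only 33 columns for GBP1 and 37 for GBP3. These are matches of letters, and binding was not measured.

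Of the libraries as a whole, gene counts ranged from 38219702 to 48997555. CPM is the reads of a gene per 1000000 gene reads of its library, after TMM scaling of the library size in edgeR (factors 0.975 to 1.03). The detection floor used here, 3 reads, equalled 0.0624 to 0.0805 CPM. Replicates differed by more than counting error in each group (chi-square per degree of freedom 4.22 to 32.6). Alignments that were not unique, which the gene counts leave out, were 26.1% of the total in library 1 of the control coculture and at most 21.5% in the others. GJA1 averaged 48.7 CPM in control cells alone, 65.3 CPM in control coculture, 27.8 CPM with hairpin 1 and 32.7 CPM with hairpin 2, so both hairpins lowered their target without removing it. Its change with both hairpins against control coculture was -1.11 on the log2 scale.

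All 5 guanylate-binding protein genes rose when control cells were grown with astrocytes. The rise was shallow for GBP3 (1.67-fold), moderate for GBP1 (3.52-fold) and GBP2 (7.58-fold), and steep for GBP5 (16.5-fold) and GBP4, which was close to the detection floor in cells grown alone. The call, here and below, is an adjusted p under 0.05 in edgeR's quasi-likelihood test over the 15806 genes whose mean count reached 10, with Benjamini-Hochberg adjustment over all of them. All 5 members were called higher, against a background of 8.74% of the genes tested. Their median log2 change was 2.92, and the median over all genes tested was -0.0026.

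GBP1 (ENSG00000117228.9), the founding member, whose lipid-anchored form coats bacteria in the cytosol, stood at 9.49 and 9.40 CPM in cells grown alone. Its level was 34.6 and 31.9 CPM in control coculture, 10.5 and 9.58 CPM with hairpin 1, and 9.88 and 9.68 CPM with hairpin 2. Both control coculture libraries lay far above the other 6, which sat close together. The log2 change from alone to coculture was 1.82 (SE 0.082, 95% interval 1.63 to 2.00, adjusted p = 1.90e-06 by edgeR). GBP1 ranked 112 from the top of all genes tested in this comparison.

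GBP3 (ENSG00000117226.7), which lacks the prenyl anchor and lies next to GBP1, had the smallest rise of the 5. It was read at 36.4 and 37.6 CPM alone, 62.1 and 61.4 CPM in control coculture, 40.4 and 38.4 CPM with hairpin 1, and 39.0 and 39.4 CPM with hairpin 2. The control coculture pair again stood apart from all other libraries. The log2 change from alone to coculture was 0.74 (SE 0.063, interval 0.60 to 0.88, adjusted p = 1.30e-04 by edgeR), which ranked 716 among all genes tested.

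GBP2 (ENSG00000162645.8), a prenylated member found on Golgi and vacuole membranes, was read at 0.797 and 0.790 CPM alone and at 6.50 and 5.55 CPM in control coculture. With hairpin 1 it was at 1.69 and 1.76 CPM, and with hairpin 2 at 1.59 and 1.98 CPM. The 4 depleted libraries thus lay between the other groups, with no overlap on either side. The log2 change from alone to coculture was 2.92 (SE 0.167, interval 2.54 to 3.30, adjusted p = 9.65e-06 by edgeR).

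GBP5 (ENSG00000154451.10), a prenylated member known for promoting NLRP3 inflammasome assembly, was read at 0.211 and 0.312 CPM alone, or 9 and 15 reads. Control coculture gave 4.99 and 3.84 CPM, hairpin 1 gave 0.347 and 0.410 CPM, and hairpin 2 gave 0.482 and 0.523 CPM. The gap between control coculture and every other library was larger than the spread within any group. The log2 change from alone to coculture was 4.05 (SE 0.241, interval 3.50 to 4.60, adjusted p = 1.23e-05 by edgeR), which ranked 23 from the top.

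GBP4 (ENSG00000162654.8), an unprenylated member of the coat on cytosolic bacteria, was all but silent in control cells alone, with 1 and 3 reads (0.0234 and 0.0624 CPM). In control coculture it had 165 and 133 reads (4.24 and 3.57 CPM). With hairpin 1 it had 14 and 20 reads (0.324 and 0.483 CPM), and with hairpin 2 it had 23 and 18 (0.554 and 0.409 CPM). The 3 levels, alone, depleted and control coculture, did not overlap. Summed over the 2 libraries of each group and set against library size, reads were 88.7 times as frequent in control coculture as alone, with an exact 95% interval of 34.3 to 328 that covers counting error only. The fitted log2 change, 6.38 (SE 0.351, adjusted p = 7.40e-06 by edgeR), ranked 7 among all genes tested and depends on the low reads in cells alone. It was 5.89 without library 1 and 7.20 without library 2 of control cells alone.

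**Figure D1:**
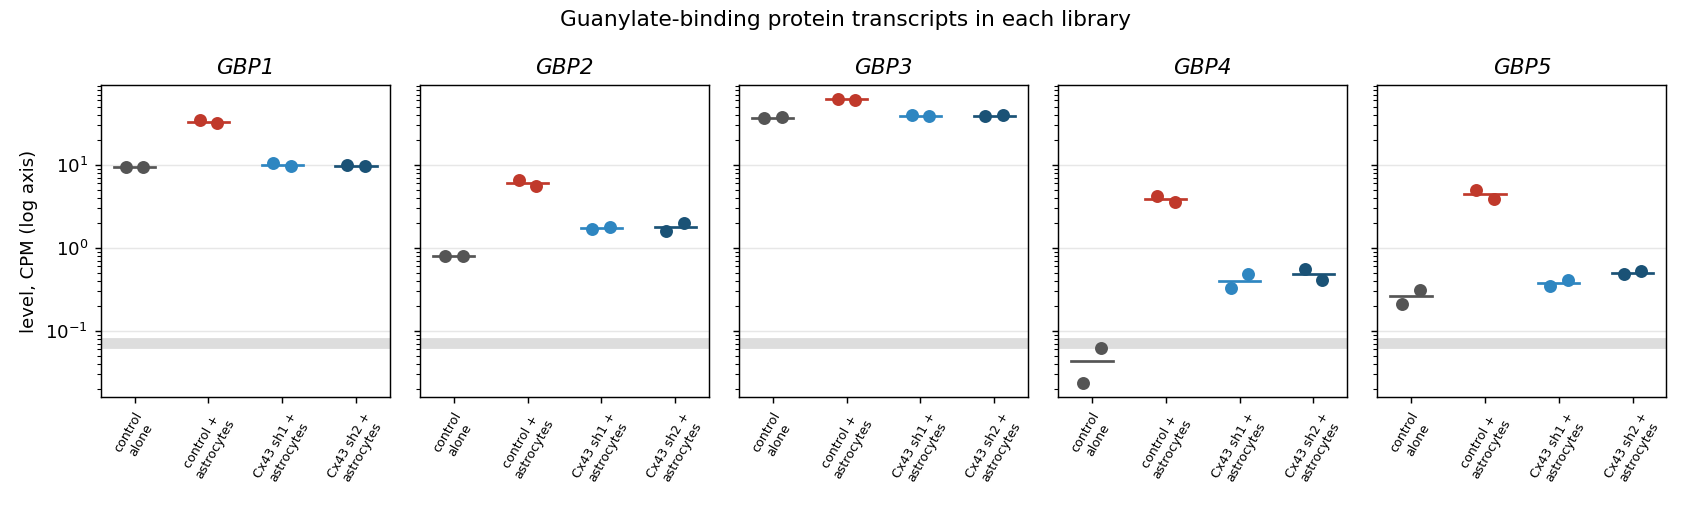
Level of each guanylate-binding protein gene in each of the 8 libraries, in CPM on a log axis, by group. Points are single libraries, and the grey band is the level of 3 reads. For all 5 genes the control coculture libraries are the highest 2, and GBP4 in cells alone lies at or below the floor.

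Cx43 depletion in coculture lowered all 5 genes with each hairpin. Both hairpin contrasts use the same 2 control coculture libraries, so the values below stand side by side and are not independent of each other. With hairpin 1 all 5 members were called lower, against 4.73% of all genes tested, and with hairpin 2 all 5, against 3.20%. With the mean of both hairpins all 5 were called lower, against 5.85%, with a median log2 change of -1.78 beside -0.0080 over all genes tested. Each library pools the ribosome-bound RNA of many tagged cells, so fewer responding cells and less RNA per cell cannot be told apart in any change given here.

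The prenylated GBP5 and the unprenylated GBP4 fell the most. GBP5 changed by -3.54 (SE 0.230) with hairpin 1 and by -3.13 (SE 0.218) with hairpin 2 on the log2 scale, with adjusted p-values of 3.34e-05 and 5.99e-05 by edgeR. GBP4 changed by -3.27 (SE 0.239) and -3.02 (SE 0.231), with adjusted p-values of 7.17e-05 and 1.10e-04. Averaged over both hairpins, the fitted level of GBP5 was 0.0993 of that in control coculture and the level of GBP4 was 0.113. GBP2 changed by -1.80 with hairpin 1 and -1.75 with hairpin 2, and GBP1 by -1.73 and -1.77, all 4 with adjusted p-values of at most 2.20e-04 by edgeR. The fitted fraction left was 0.298 for GBP1 and 0.291 for GBP2. GBP3 fell by 0.65 on the log2 scale with either hairpin, to 0.637 of control coculture (adjusted p = 5.19e-04 and 5.33e-04 by edgeR).

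The 2 hairpins were also compared with each other. None of the 5 members was called different between hairpin 2 and hairpin 1 by edgeR, none had an unadjusted p under 0.05, and DESeq2 called 0; 0.0316% of all genes tested were called. The log2 difference of hairpin 2 minus hairpin 1 was -0.04 for GBP1 (95% interval -0.23 to 0.16) and 0.05 for GBP2 (-0.34 to 0.44). For GBP3 the interval was -0.15 to 0.14. The low counts of GBP4 and GBP5 left wider limits, with 0.26 (-0.50 to 1.01) and 0.41 (-0.32 to 1.14). For GBP5 both hairpin 2 libraries lay above both hairpin 1 libraries, but the difference did not pass the test (adjusted p = 0.748 by edgeR).

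**Figure D2:**
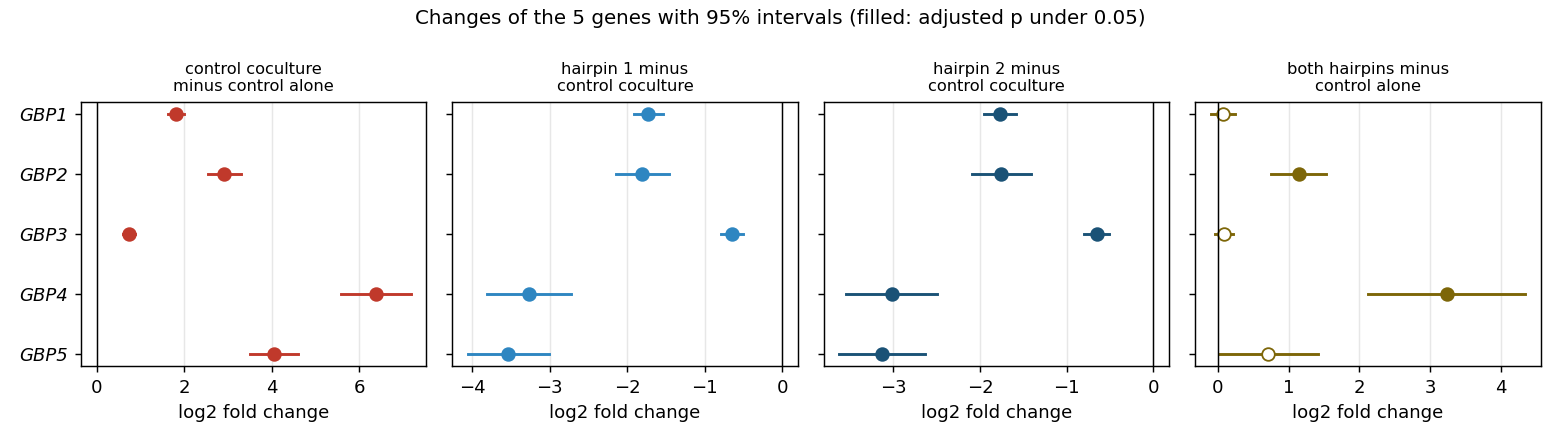
Log2 change of each gene in 4 comparisons, with 95% intervals from the edgeR fit; filled points passed the adjusted threshold of 0.05. All 5 genes are filled to the right for coculture against alone and to the left for Cx43 depletion against control coculture, while against cells alone only GBP2 and GBP4 are filled.

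Depleted cells in coculture were also compared with control cells alone. GBP2 and GBP4 were called higher, so 2 of 5 members were, against a background of 10.8% of genes called higher. GBP2 was 2.21-fold higher (log2 1.14, SE 0.171, interval 0.75 to 1.53, adjusted p = 0.00413 by edgeR). For GBP4 the summed reads were 75 over the 4 depleted libraries and 4 over the 2 libraries of cells alone, a ratio of 10.0 per library size with an exact interval of 3.75 to 37.7. Its fitted log2 change of 3.23 (SE 0.486) had an adjusted p of 0.00415 by edgeR. Without library 1 of control cells alone the value was 2.75 and the adjusted p 0.0504, so the call rested on that library. Without library 2 of control cells alone the value was 4.05 (adjusted p = 0.0287 by edgeR).

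The other 3 members did not pass. GBP1 differed by 0.07 (interval -0.10 to 0.24, adjusted p = 0.545) and GBP3 by 0.09 (-0.04 to 0.21, adjusted p = 0.288). GBP5 differed by 0.72 (0.02 to 1.42), with an unadjusted p of 0.0460 and an adjusted p of 0.137 by edgeR. For GBP1 the groups lay close together: the lowest depleted library was at 9.58 CPM and the highest library alone at 9.49 CPM. Cx43-depleted cells grown alone were not analysed here, so an effect of the hairpins themselves and an effect of astrocytes on depleted cells cannot be told apart.

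The members were also set against GBP1 within each library, as the log2 ratio of their counts, which removes library size. Relative to GBP1, GBP2 was 1.06 higher and GBP4 3.07 higher in the 4 depleted libraries than in the 2 libraries of cells alone, with no overlap (p = 0.0667 for each, exact permutation test, two-sided). GBP5 was 0.67 higher with overlap (p = 0.133, exact permutation) and GBP3 0.02 higher (p = 0.533, exact permutation). Against control coculture, the GBP2 to GBP1 ratio in depleted cells differed by -0.03 (p = 0.933, exact permutation), while the ratios of GBP4 and GBP5 were different by -1.38 and -1.55 and that of GBP3 by 1.10, each without overlap. With 15 possible splits the smallest p is 0.0667, which is 0.107 after adjustment over the 8 comparisons, so none could pass 0.05. The splits also treat the 4 libraries of both hairpins as 1 group. The share of other genes without overlap is not given here, so no conclusion is drawn from these ratios.

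Compared per length, the genes kept one order in cells alone. Divided by the length of the joined exons (GENCODE release 29), GBP3 had 8.61 CPM per kb, GBP1 1.89, GBP2 0.126, GBP5 0.0321 and GBP4 0.00700, and no 2 neighbours in this order overlapped. In control coculture GBP3 led at 14.4 CPM per kb, followed by GBP1 at 6.67 and GBP2 at 0.960. GBP4 at 0.637 (libraries 0.582 and 0.692) and GBP5 at 0.542 (0.471 and 0.612) followed, and these last did not differ beyond their spread. GBP4, the lowest member in cells alone, thus came to overlap with GBP5. With hairpin 1 the last places were GBP4 at 0.0658 and GBP5 at 0.0465 CPM per kb, and with hairpin 2 they were 0.0786 and 0.0617. The reads themselves overlapped, with 14 and 20 for GBP4 and 15 and 17 for GBP5 with hairpin 1. With hairpin 2 they were 23 and 18 against 20 and 23. The order of these 2 genes in depleted cells thus comes from the exon lengths (6127 and 8143 bases) and was not tested. The level of the 5 genes summed as CPM was 47.0 and 48.1 in cells alone, 112 and 106 in control coculture, 53.2 and 50.6 with hairpin 1, and 51.5 and 52.0 with hairpin 2.

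**Figure D3:**
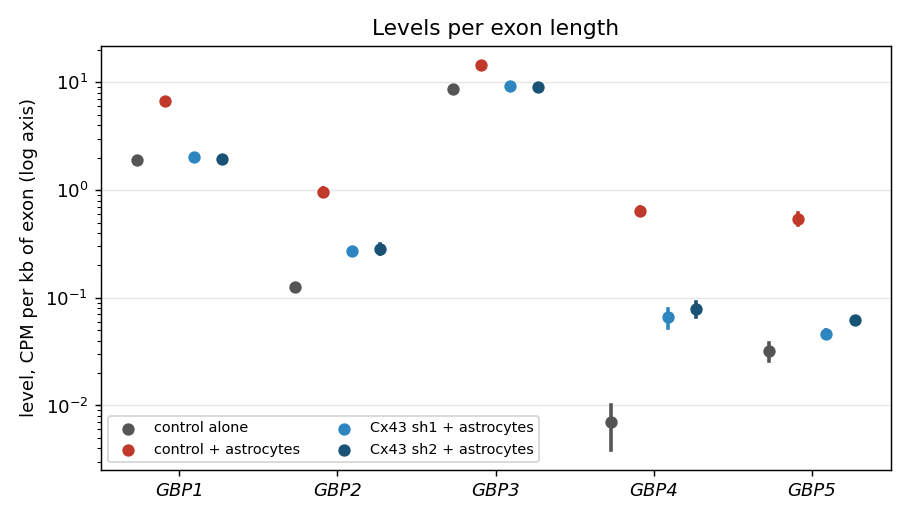
Level per kilobase of joined exon, in CPM per kb on a log axis, of the 5 genes in each group; points are means of 2 libraries and bars run from the lower to the higher library. GBP3 is the highest and GBP1 the next in all 4 groups, and GBP4 moves from last place in cells alone to overlap with GBP5 in control coculture.

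Near-identical relatives could exchange reads with some members. Of the 50-base words of their transcripts, 9.62% for GBP1 and 10.2% for GBP2 also occurred in another gene, mostly the pseudogene GBP1P1 and GBP7 respectively. The share was 4.76% for GBP3, mostly with GBP1. The shares of 4.03% for GBP4 and 0.396% for GBP5 came mainly from genes outside the family. Of the GBP genes, GBP7 and GBP2 held 19 and 5 words of GBP4, and none held a word of GBP5. The read length is not given in the sources used here. GBP7 had 0 reads in every library and GBP6 at most 2. GBP1P1 had 1 and 3 reads in cells alone, 28 and 33 in control coculture, 2 and 1 with hairpin 1, and 8 and 2 with hairpin 2. Its mean of 9.75 reads fell just below the minimum of 10, so it was not tested. Per library size its reads were 18.2 times as frequent in control coculture as alone (exact interval 6.74 to 68.8) and 10.5 times as frequent as in depleted cells (5.70 to 20.8).

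Among other large GTPases related by fold or by function, 7 of 11 were tested. MX1 and MX2, dynamin-like antiviral GTPases, rose in coculture by 6.07 and 5.98 on the log2 scale and changed by -3.82 and -4.09 with Cx43 depletion. These were the only 2 called in coculture, where 8.74% of all genes tested were called higher. With depletion 5.85% of all genes tested were called lower and 3.37% higher. The atlastins, membrane-fusing GTPases of the endoplasmic reticulum with a related GTPase domain, gave 0.15 for ATL1, -0.05 for ATL2 and -0.12 for ATL3 in coculture, none called. ATL3 was called higher with depletion (0.30, adjusted p = 0.0265 by edgeR), a call lost without any of 5 single libraries (both of control coculture, both of hairpin 2 and library 1 of cells alone, with adjusted p up to 0.166). The median over the tested relatives was 0.15 in coculture and 0.06 with depletion.

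Genes of the interferon route to the GBP promoters were followed as a list of 20, of which 13 were tested. In coculture 9 of 13 were called higher and none lower, where 8.74% of all genes tested were called higher and 2.93% lower, and the median log2 change was 0.55. With depletion 6 were called lower and 1 higher, where 5.85% of all genes tested were called lower and 3.37% higher, and the median was -0.20. Transcription factors were among both sets of calls. STAT2 rose by 1.53 and then changed by -1.33 with depletion, and IRF9 gave 1.74 and -1.27. IRF1, a direct activator of GBP genes, gave 0.93 and -0.61, IRF2 gave 0.95 and -0.92, and the feedback inhibitor SOCS1 gave 1.10 and -0.57. The call for IRF9 with depletion was lost without library 2 of control coculture (adjusted p = 0.0724 by edgeR).

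Of the receptor chains and kinases, IFNGR2 (0.55), JAK2 (0.54) and IFNAR2 (0.37) rose in coculture. The IFNAR2 call was lost without library 1 or library 2 of cells alone or library 1 of control coculture, with adjusted p up to 0.161. IFNAR1 was called higher with depletion (0.31), a call lost without either control coculture library or library 2 of hairpin 2 (adjusted p up to 0.132). IFNGR1, JAK1 and TYK2 passed in neither comparison, although JAK1 in coculture (0.32, adjusted p = 0.0773) passed without either hairpin 1 library (lowest adjusted p = 0.0135). Of the interferon genes on the list, IFNG, IFNA1, IFNL1, IFNL2 and IFNL3 had 0 reads in all 8 libraries. That allows up to 0.0805 CPM in the shallowest library. IFNB1 had at most 1 read. Other interferon genes were not examined. The pull-down targets polysomes of the tagged carcinoma cells, and how much astrocyte RNA came along was not measured. These counts therefore give no level of interferon transcripts in the astrocytes.

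The 6 enzymes that attach and process the prenyl anchor of GBP1, GBP2 and GBP5 were all tested. None was called by edgeR in coculture or with depletion, where 11.7% and 9.22% of all genes tested were called in either direction. For 6 genes, 0 calls lies near those shares and says little about these enzymes. An unadjusted p under 0.05 by edgeR was reached by 0 and 1, and DESeq2 called 0 in both. Their median log2 changes were -0.04 and 0.04. PGGT1B, which attaches geranylgeranyl groups, had the value nearest to the threshold with depletion (0.22, adjusted p = 0.0749 by edgeR).

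Partners of the GBP proteins in inflammasome signalling and defence inside the cell were a list of 13, with 12 tested. In coculture 7 were called higher and none lower (median 0.75), where 8.74% of all genes tested were called higher. With the mean of both hairpins 8 were called lower and none higher (median -0.49), where 5.85% of all genes were called lower. With hairpin 1 by itself 7 were called lower (4.73% of all genes), and with hairpin 2 by itself 4 (3.20%). AIM2, a sensor of cytosolic DNA whose activation depends on GBPs in some infections, rose by 2.80 and changed by -1.94 with depletion. IL1B rose by 2.38 in coculture and gave -0.93 for the mean of the hairpins, but its changes were -1.51 with hairpin 1 (adjusted p = 2.43e-05 by edgeR) and -0.36 with hairpin 2, which was not called (adjusted p = 0.0623). APOL3, which lyses bacteria after GBP1 has opened their surface, gave 1.86 and -1.16. CASP1 gave 1.21 and -0.84, PIM1, a kinase that restrains GBP1, gave 1.16 and -0.70, and these 5 genes kept their calls in coculture and for the mean of both hairpins without any 1 library.

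RNF213, a ubiquitin ligase for bacterial lipopolysaccharide, gave 0.90 in coculture and -0.51 with depletion, and NLRP3, which GBP5 acts upon, gave 0.60 and -0.27. The inflammasome adaptor PYCARD was called lower with depletion alone (-0.47). The 3 depletion calls were each lost without library 2 of control coculture or either library of hairpin 2, and those of RNF213 and NLRP3 also without library 1 of control coculture, with adjusted p up to 0.192, 0.185 and 0.161 in the order named. CASP4, the caspase activated on GBP coats, stood at 0.09 and 0.01 and its substrate GSDMD at 0.12 and -0.13, neither called. SQSTM1 and IL18 were called in neither comparison, but with depletion SQSTM1 (-0.19) passed without library 2 of hairpin 1 and IL18 (-0.35) without library 1 of hairpin 1 (adjusted p = 0.0389 and 0.0409).

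Of 10 genes flanking the GBP cluster on chromosome 1, 9 were tested. None was called higher in coculture, where 8.74% of all genes tested were called higher and 2.93% lower. LRRC8C (-0.38) and ZNF326 (-0.26) were called lower there. With depletion 3 were called higher, LRRC8B (0.30), LRRC8C (0.31) and LRRC8D (0.25), where 3.37% of all genes tested were called higher. Each of these 5 calls was lost without at least 1 single library, among them library 1 of control coculture for all, with adjusted p of up to 0.283. The medians were -0.05 and 0.14. The nearest protein-coding gene before GBP3, RBMXL1, gave 0.0028 in coculture and -0.04 with depletion, and LRRC8B after the cluster gave -0.05 in coculture.

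**Figure D4:**
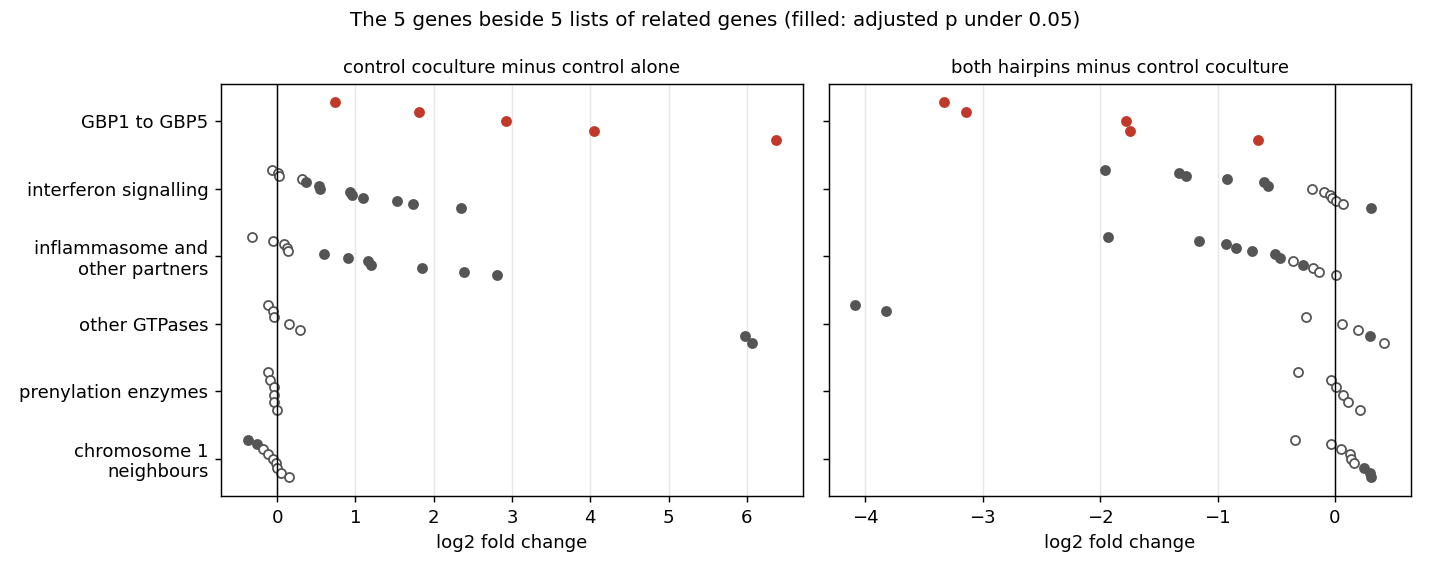
Log2 change of the 5 members and of the tested genes of 5 lists, for control coculture against alone and for the mean of both Cx43 hairpins against control coculture. Each point is 1 gene. The members lie between 0.74 and 6.38 in the first comparison, while the prenylation enzymes and the chromosome 1 neighbours lie near 0.

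The genes whose pattern over the 8 libraries was most like that of each member were found by the smallest root-mean-square difference of log2 CPM centred on the gene's own mean, among 11643 genes whose mean count reached 50. For GBP1 they were DDX60L, HERC5, UBE2L6, SAMHD1 and TRIM21, at differences of 0.0858 to 0.132. For GBP2 they were SAMD9L, SAMD9, AIM2, HERC6 and PARP14 (0.111 to 0.214), and for GBP3 HBP1, N4BP1, TESK2, PNPT1 and SLC25A28 (0.0724 to 0.0805). GBP5 was nearest to USP18, IFIT3, OAS3, TNFSF10 and ISG15 (0.174 to 0.323). GBP4 had no neighbour as close, with IFI44L, ETV7, MX1, MX2 and IFIT1 at 0.448 to 0.693. Pearson's r was 0.954 to 0.995 in all of these pairs; the points are the same 8 libraries in 4 groups, so every pair shares its libraries and its groups. No gene was among the 5 nearest of more than 1 member. Among the members themselves, GBP1 was 0.473 from GBP3 and 0.476 from GBP2, and GBP3 and GBP4 were farthest apart at 1.99.

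**Figure D5:**
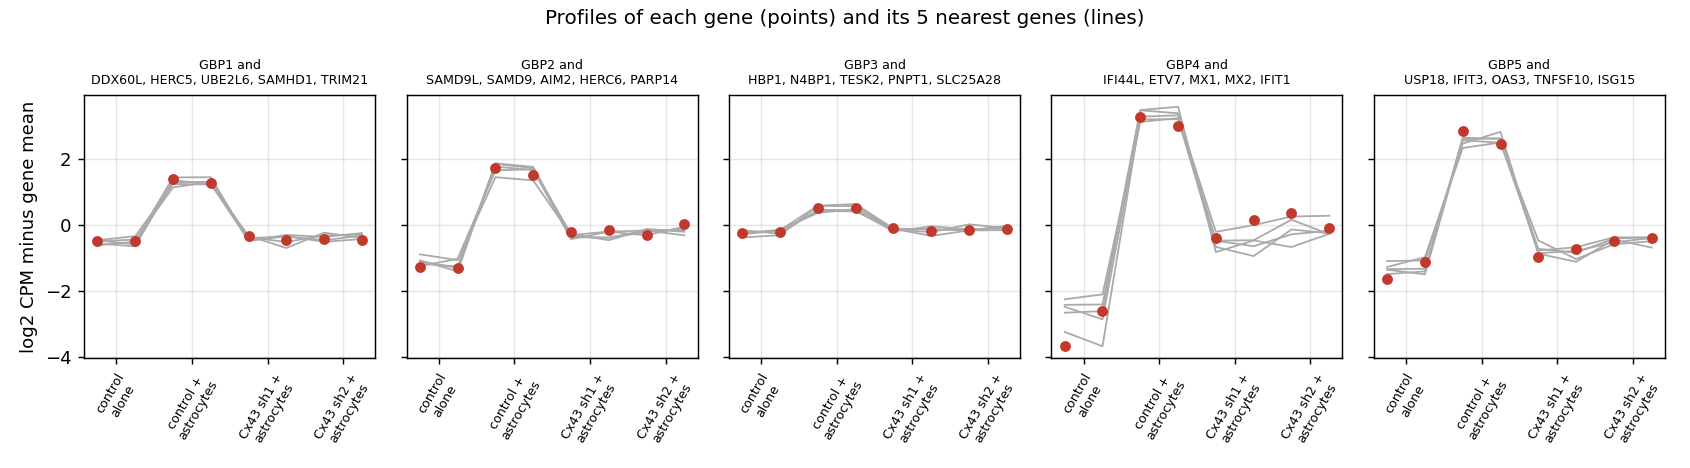
Log2 CPM centred on each gene's mean over the 8 libraries; points are the member and lines its 5 nearest genes. In every panel the control coculture libraries stand at the top. For GBP1 and GBP3 the points of the depleted libraries lie close to those of cells alone.

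Markers of other cells moved in part with the groups. The summed level of 8 breast carcinoma line markers was 2403 to 2650 CPM in cells alone, 3279 to 3425 in control coculture, 2495 to 2656 with hairpin 1 and 2398 to 2431 with hairpin 2. VIM made up most of that sum (mean 1410 CPM alone and 2134 CPM in control coculture). Of the 8 markers VIM and KRT8 were called higher in coculture, EPCAM lower and 5 neither. Over all genes tested, 8.74% were called higher in coculture and 2.93% lower. With the mean of both hairpins against control coculture, 5 of the 8 carcinoma line markers were called lower, 0 higher and 3 neither. In that comparison 5.85% of all genes tested were called lower. The 8 astrocyte markers summed to 48.6 to 52.6, 67.2 to 68.4, 60.8 to 69.1 and 55.6 to 55.8 CPM in the same order of groups. S100B and GJB6 had no more than 3 reads in any library. SOX9 made up most of the astrocyte sum, also in cells grown without astrocytes (mean 37.5 CPM alone and 47.7 CPM in control coculture). Of the 5 astrocyte markers tested, 3 were called higher in coculture and 2 were not called. GFAP averaged 8.66 CPM alone, 13.28 CPM in control coculture, 16.69 CPM with hairpin 1 and 11.97 CPM with hairpin 2. SLC1A3 averaged 2.85, 5.31, 3.61 and 3.99 CPM in the same order. By contrast, ALDH1L1 had a lower mean in control coculture (1.13 CPM) than alone (1.30 CPM). The 8 microglia and macrophage markers summed to 2.88 to 3.66, 5.31 to 5.58, 3.76 to 4.14 and 3.06 to 3.43 CPM. Of these, 4 never passed 3 reads, and AIF1 and TYROBP were at 0 in every library. CD68 and CSF1R made up most of the microglia and macrophage sums. Endothelial markers (5 of 6 in the table) summed to 8.38 to 10.4, 11.3 to 12.2, 9.22 to 9.43 and 9.95 to 10.0 CPM. The 6 markers of T and NK cells, which are the usual sources of interferon gamma, never passed 3 reads. The part of these sums in the changes of the GBP genes was not tested.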

How the data were processed

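The 8 libraries were TruSeq RNA v2 libraries of polysome RNA captured on anti-GFP beads, per the labels' protocols. The submitters' processing notes name TopHat2, HTSeq, DESeq2 and hg19 without versions; annotation, strand setting and read length are not given in the sources used here. Counts in the deposited table are whole numbers per gene, and its 5 counter entries were left out. Its name calls the values normalized, but the columns hold whole numbers with differing totals and were treated as raw counts.

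Counts were tested in R 4.3.3 with edgeR 4.0.16 (TMM scaling, quasi-likelihood, all 8 libraries in 1 fit, mean count of at least 10). The common biological coefficient of variation was 7.66%. Alternatives were RLE scaling, DESeq2 1.42.0, no low-count filter, a replicate block, only the compared groups in the fit, and each library left out. The test was run on simulated counts with 200 changed genes. These were drawn with the spread that edgeR itself had fitted, alike in all groups. The run therefore does not cover the unequal spread of replicates between the groups. Promoters were compared with Biopython's local alignment. Exon lengths and shared 50-base words come from GENCODE release 29, which may differ from the authors' annotation.

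Named genes were the 5 members, GJA1, the genes of 5 lists and, for each member, the 5 nearest genes by pattern. The members and lists were chosen with earlier results of these data known. The values of 1 gene of the interferon list are not reported here.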

Additional observations from a re-analysis of the deposited data

Results flagged for a closer look

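IL1B, the cytokine that inflammasomes mature and a gene of the partner list, was the 1 gene of the lists called different between the Cx43 hairpins. It was read at 6.94 and 6.37 CPM with hairpin 1 and at 15.4 and 14.1 CPM with hairpin 2, with 3.45 and 3.78 CPM in cells alone and 18.3 and 19.5 CPM in control coculture. The log2 difference of hairpin 2 minus hairpin 1 was 1.15 (SE 0.0940, adjusted p = 0.00678 by edgeR), and DESeq2 called it too. The call was lost without hairpin 2 library 1 (log2 1.09, adjusted p = 0.190) or library 2 (log2 1.21, adjusted p = 0.0666). None of the 5 GBP genes was called in this comparison.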

How the results depend on the processing

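The 5 members in 6 comparisons gave 30 log2 changes, each recomputed under 13 alternatives. Of these 390 values, 381 kept their direction and their side of the threshold. The exception in a call was GBP4 in depleted cells against control cells alone, so that leaving out 1 library gave 1 to 2 members called there. The 8 values that changed sign all belonged to hairpin 2 minus hairpin 1, where no member was called. They were GBP3 at 0.000342 with only the compared groups in the fit, and values within the ranges found on leaving out 1 library: -0.10 to 0.023 for GBP1, -0.12 to 0.20 for GBP2, -0.043 to 0.024 for GBP3 and -0.015 to 0.56 for GBP4.

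Replicate numbers as given did not pair the libraries across all groups (correlations of deviations between groups from -0.357 to 0.184). The correlation was 0.184 between the 2 control groups and 0.123 between the 2 hairpin groups. Between control and hairpin groups it ran from -0.357 to -0.0449. Whether a spread is shared between groups under other numbers was not tested, and the block below uses the numbers as given. A replicate block left the members called at 5 in coculture and in each depletion comparison, 0 between hairpins and 2 against cells alone, while it lowered the genes called over the whole table from 1844 to 1160 in coculture and from 1457 to 700 for both hairpins against control coculture. Of the listed genes, the block ended the calls of IFNAR2 (adjusted p = 0.0527 by edgeR) and ZNF326 (0.0897) in coculture, of ATL3 (0.0678), NLRP3 (0.0668), RNF213 (0.0641), LRRC8B (0.0750) and LRRC8D (0.106) for both hairpins against control coculture, and of IL1B between hairpins (0.0606). These whole-table counts moved more than those of the members: without 1 library they ran from 738 to 2582, 281 to 2405 (hairpin 1), 150 to 1101 (hairpin 2), 343 to 2314 (both), 0 to 3 (between hairpins) and 531 to 4717 (both against alone), and under the other settings from 1160 to 2805, 236 to 2269, 319 to 1191, 700 to 2167, 0 to 304 and 1502 to 4117.

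Depth limits GBP4 and GBP5, with 4 and 24 reads in all in cells alone, and GBP1P1, GBP6 and GBP7. Each group has 2 libraries. Where 1 is left out, the lone library is assumed to vary like the others.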
